A study of Mus musculus with 12 samples.

Results

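Angiopoietins, their Tie receptors, the endothelial receptor phosphatase VE-PTP and a pair of angiopoietin-like proteins were followed in mouse cardiac fibroblasts treated with *Sox17* and *Erg*. The genes were taken by symbol from the gene-level bulk RNAseq counts, and all 8 of them (*Tek*, *Tie1*, *Angpt1*, *Angpt2*, *Angpt4*, *Ptprb*, *Angptl2* and *Angptl4*) were found among 35727 Ensembl genes. Fibroblasts came from pooled hearts of neonatal mice and were selected for THY1, and their strain is not given in the labels. The study describes removal of PECAM1-positive cells before this part of the work, its methods make that removal conditional, and the labels do not give it per sample. Cells of the *Sox17*-*Erg* groups carried both factors on pMX retroviral vectors, control libraries are labelled control and PMX, and all groups grew in EGM2, an endothelial growth medium. RNA was collected at Day 3, Day 7 and 4 weeks, with 2 libraries per group and 12 in all, and nothing in the labels says whether replicates were separate isolations, so p-values measure only the spread between these libraries.

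TEK (also called TIE2) is the receptor tyrosine kinase of blood vessel endothelium that binds angiopoietins, and TIE1 is its partner receptor, which modulates TEK signaling and has no ligand of its own among the classical angiopoietins. ANGPT1, made by mural and mesenchymal cells, activates TEK and stabilizes vessels, while ANGPT2, made and stored by endothelial cells, blocks or weakly activates TEK depending on context. *Ptprb* encodes VE-PTP, which dephosphorylates TEK and associates with VE-cadherin. ANGPTL2 and ANGPTL4 share the angiopoietin fold but do not bind Tie receptors. ANGPTL4 inhibits lipoprotein lipase, and ANGPTL2 is secreted by stromal and fat cells.

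On GRCm38, with the GENCODE M21 annotation, *Tek* (ENSMUSG00000006386) spans chr4:94739289-94874976 on the plus strand. *Tie1* (ENSMUSG00000033191) lies on the same chromosome at chr4:118471191-118490061 on the minus strand. *Angpt1* (ENSMUSG00000022309) is at chr15:42424723-42676977, *Angpt2* (ENSMUSG00000031465) at chr8:18690263-18741562, and *Angptl4* (ENSMUSG00000002289) at chr17:33773750-33781830, all on the minus strand. *Angpt4* (ENSMUSG00000027460) at chr2:151911210-151945337, *Angptl2* (ENSMUSG00000004105) at chr2:33216069-33247717 and *Ptprb* (ENSMUSG00000020154) at chr10:116275523-116389535 are on the plus strand. At most 1.54% of the 31-base words of any of these genes occurred in another gene, and reads shared between genes were not counted.

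*Sox17* encodes a SOX factor and *Erg* an ETS factor, and *Tek* was the receptor called already at Day 3, so the 250 bases before its RefSeq start are shown (chr4:94739039-94739288, plus strand, GRCm38.p6). Capitals mark the ETS core GGAA or its reverse TTCC and the SOX core ACAAT or its reverse ATTGT, and in 1 place a SOX and an ETS match share a base.

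Tek: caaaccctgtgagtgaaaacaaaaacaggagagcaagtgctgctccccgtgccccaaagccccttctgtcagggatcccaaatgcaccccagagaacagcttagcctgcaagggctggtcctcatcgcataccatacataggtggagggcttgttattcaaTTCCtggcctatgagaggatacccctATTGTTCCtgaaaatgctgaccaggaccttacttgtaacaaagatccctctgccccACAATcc

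This window held 2 matches to the ETS core, a number reached by 76.8% of 32851 promoter windows of the same length. It also held 2 matches to the SOX core, a number reached by 6.59% of windows. The *Tie1* window held 7 ETS core matches, reached by 3.82% of windows, and 0 SOX core matches. The *Angptl2* window held 2 ETS and 0 SOX matches, and the *Angpt4* window 5 and 1. RefSeq windows were matched for these 4 of the 8 genes. At least 1 match was found in 93.4% of all windows for the ETS core and in 27.7% for the SOX core, and a match is a description of letters, not of binding.

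Between 19011635 and 41240449 counts were assigned to genes per library. The *Sox17* transcript was at most 9 counts in control libraries and at least 10019 in *Sox17*-*Erg* libraries, and *Erg* was at most 49 against at least 389, which accords with the labels of all 12 libraries. Cells were labelled fibroblasts, and none of 8 fibroblast markers was at 0 in any library. Control replicate 2 at Day 3 and Day 7 stood apart by part of the endothelial transcripts: *Cdh5*, which encodes VE-cadherin, had 25 and 309 counts (Day 3), 6 and 201 (Day 7) and 10 and 14 (4 weeks) in the control replicates. In those replicates 5 of 10 endothelial markers (*Cdh5*, *Emcn*, *Cldn5*, *Egfl7* and *Vwf*) exceeded 2-fold the level in replicate 1, with *Cldn5* at 10 counts or fewer. Of the 10 markers, 8 (Day 3) and 7 (Day 7) were higher in replicate 2. The remaining 2 and 3 were higher in replicate 1, *Kdr* among them on both days. In bulk RNA, fewer cells of a type cannot be told apart from less RNA per cell.

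Levels below are CPM, counts scaled to a common library total, with TMM factors that correct for composition. Across the 8 genes *Ptprb* was the highest per kb in *Sox17*-*Erg* libraries, *Angpt2* climbed there toward 4 weeks, and *Angpt4* was near the limit of detection throughout. Between genes, levels are compared as CPM per kb of exon unless another measure is named.

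**Figure D1:**
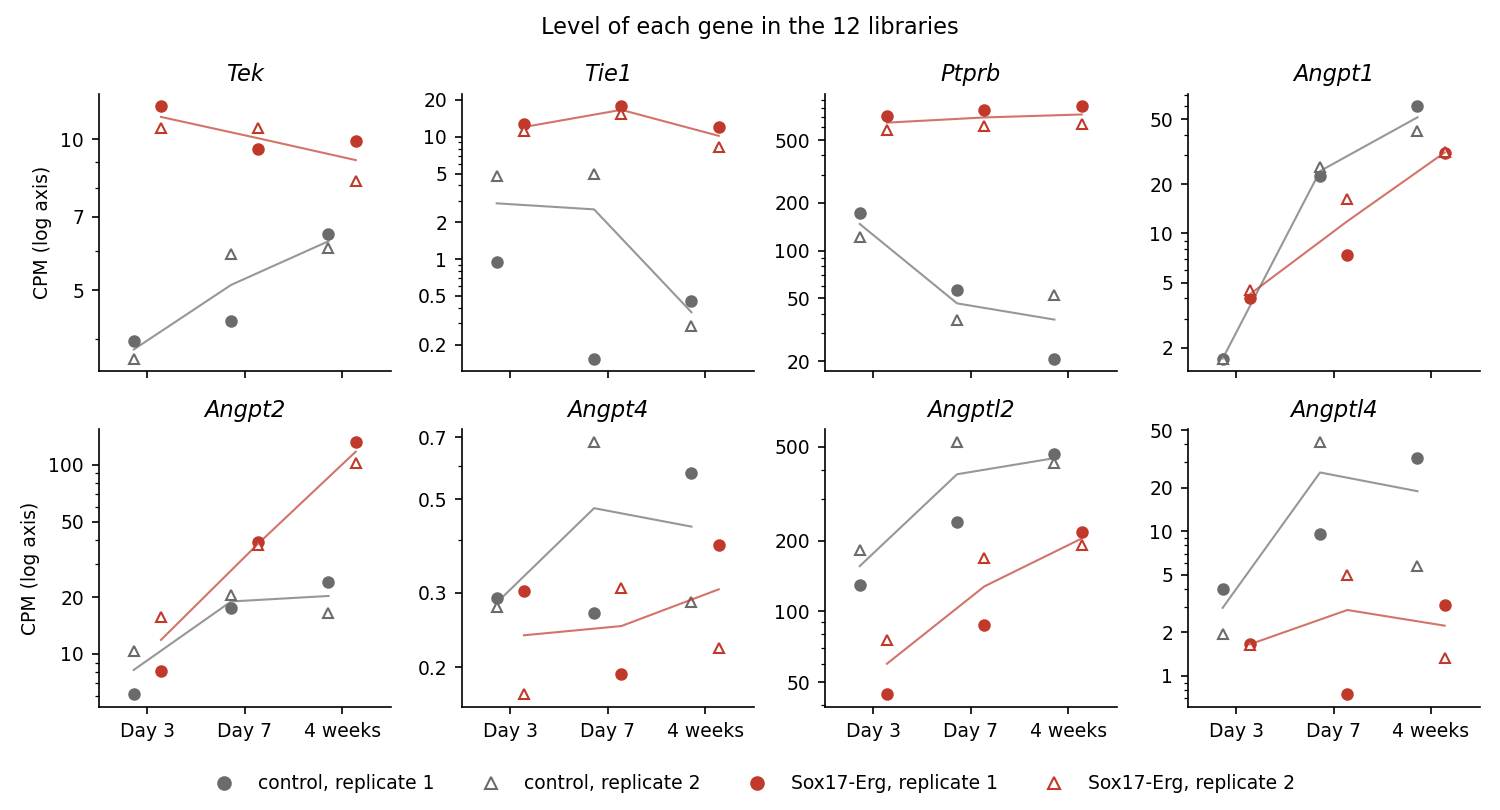
Each panel gives 1 gene, with CPM on a log axis against Day 3, Day 7 and 4 weeks. Circles and triangles are replicates 1 and 2, control is gray, *Sox17*-*Erg* is red, and lines join group means. *Ptprb* stays between 579 and 819 CPM with *Sox17*-*Erg* while control falls, and *Angpt2* reaches 132 and 103 CPM at 4 weeks.

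By CPM per kb in *Sox17*-*Erg* libraries at Day 3, *Ptprb* was first at 48.3 ± 6.82 (SD, n = 2), followed by *Angptl2* at 9.54 ± 3.50, *Angpt2* at 3.22 ± 1.45, *Tie1* at 2.44 ± 0.230 and *Tek* at 2.35 ± 0.169. The last 3 of these overlapped between libraries and had no clear order. *Angpt1* at 0.815 ± 0.0657, *Angptl4* at 0.467 ± 0.00651 and *Angpt4* at 0.102 ± 0.0398 closed the order. By 4 weeks *Ptprb* was at 54.4 ± 9.93, *Angptl2* at 32.5 ± 3.00 and *Angpt2* at 31.8 ± 5.62, and the libraries of *Angptl2* and *Angpt2* overlapped. *Angpt1* stood at 6.01 ± 0.0749, above the receptors *Tie1* (2.07 ± 0.558) and *Tek* (1.93 ± 0.248), which again overlapped.

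In control at 4 weeks the order by CPM per kb was another one. *Angptl2* was first at 71.2 ± 4.46 (SD, n = 2), *Angpt1* was next at 9.86 ± 2.39, and *Angpt2* (5.49 ± 1.44), *Angptl4* (5.34 ± 5.26) and *Ptprb* (2.75 ± 1.68) followed, with *Angptl4* overlapping all of its neighbours from *Angpt1* to *Ptprb*. *Tek* was at 1.33 ± 0.0609, *Angpt4* at 0.184 ± 0.0883 and *Tie1* last at 0.0748 ± 0.0239. *Angptl2* depends most on the length used, since its longest transcript has 3559 bases against 6286 for all exons, and per kb of longest transcript it was at 57.3 in *Sox17*-*Erg* libraries at 4 weeks, near *Ptprb* at 60.9.

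A gene was called when its Benjamini-Hochberg adjusted p over 15506 tested genes was under 0.05 in edgeR's quasi-likelihood test, and calls given without a setting are those with all 12 libraries, a filter on low counts and no replicate block. At Day 3, 3 of 8 genes were called higher with *Sox17*-*Erg* (*Tek*, *Angpt1* and *Ptprb*), against 7.19% of all tested genes. None was called lower, against 5.13% of all genes, while 1 (*Angptl2*) was lower at an unadjusted p under 0.05, as were 13.3% of all genes. At Day 7, 2 were called higher (*Tek* and *Ptprb*; background 9.48%) and 2 lower (*Angpt1* and *Angptl2*; background 7.93%). At 4 weeks, 3 were called higher (*Tie1*, *Angpt2* and *Ptprb*; background 11.9%) and 0 lower (background 11%), with 3 lower at an unadjusted p under 0.05, as were 18.4% of all genes. The median log2 fold change of the 8 genes was 0.92, 0.01 and 0.01 at the 3 time points, beside 0.01, 0.01 and -0.01 over all tested genes. *Ptprb* was the gene called at every time.

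The Wald test of DESeq2 called the same 3 genes higher at Day 3 (background 9.19%) and 1 lower (*Angptl2*; background 8.33%). At Day 7 it called 3 higher (*Tek*, *Angpt2* and *Ptprb*; background 10.7%) and 3 lower (*Angpt1*, *Angptl2* and *Angptl4*; background 10.2%). For 4 weeks its calls were 3 higher, those of edgeR (background 12.4%), and 2 lower (*Angptl2* and *Angptl4*; background 11.5%).

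Without control replicate 2 of Day 3 and of Day 7, the 2 libraries with endothelial transcripts, edgeR called 2 genes higher at Day 3 (*Tek* and *Tie1*; background 1.14%), 3 at Day 7 (*Tek*, *Tie1* and *Ptprb*; background 3.86%) and 3 at 4 weeks (*Tie1*, *Angpt2* and *Ptprb*; background 11.1%). None was called lower, beside 0.886%, 2.99% and 8.03% of all genes at the 3 times. The share of all genes called at Day 3 thus shrank too, and *Ptprb* was then at 1.86 (adjusted p = 0.129) against 2.13.

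**Figure D2:**
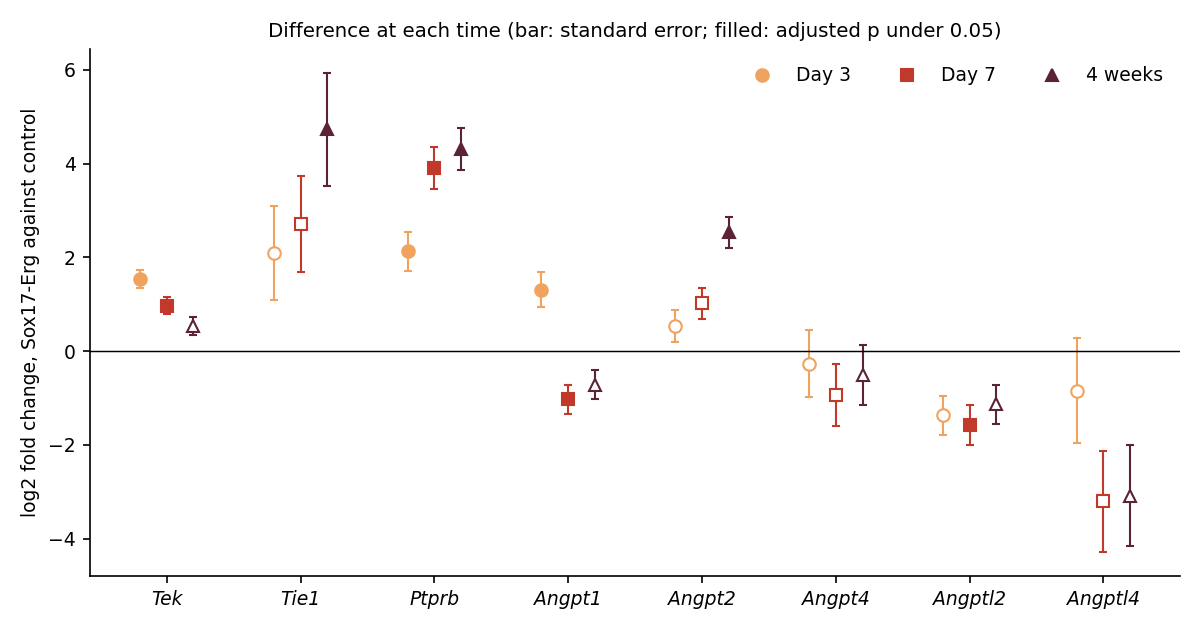
The vertical axis is the log2 fold change of *Sox17*-*Erg* against control for each gene, with 1 symbol per time point and bars of 1 standard error from the edgeR fit. Filled symbols have an adjusted p under 0.05. *Tek* goes down from 1.54 to 0.54, *Angpt2* goes up from 0.54 to 2.53, and *Angpt1* lies above 0 at Day 3 and below it later.

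*Tek*, the angiopoietin receptor, was higher with *Sox17*-*Erg* from the earliest time sampled. Control libraries held 3.97 and 3.65 CPM (Day 3), 4.34 and 5.91 (Day 7) and 6.46 and 6.06 (4 weeks). *Sox17*-*Erg* libraries held 11.6 and 10.5 CPM (Day 3), 9.54 and 10.5 (Day 7) and 9.91 and 8.26 (4 weeks). The groups did not overlap at any time, and 14.7% of all tested genes were likewise higher without overlap at all 3 times. The share of genes that separate at a single time was not computed, for this gene or those below. The log2 fold change was 1.54 ± 0.19 (SE) at Day 3 (2.90-fold, adjusted p = 0.00239), 0.97 ± 0.19 at Day 7 (1.96-fold, adjusted p = 0.00893) and 0.54 ± 0.19 at 4 weeks (adjusted p = 0.0699). At 4 weeks, leaving out 1 library at a time gave 0.39 to 0.63, and a call depended on the library left out. The Day 7 call was lost without control replicate 1 of Day 7, at 0.74 and an adjusted p of 0.0529, and in a fit of Day 7 alone, at 0.95 and an adjusted p of 0.0797.

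Within control, *Tek* rose between Day 3 and 4 weeks by 0.72 ± 0.19 on the log2 scale (adjusted p = 0.0245), and this call was lost without any 1 of the 4 control libraries compared, at 0.64 to 0.78 and adjusted p values from 0.0559 to 0.130. Within *Sox17*-*Erg* the difference was -0.29 ± 0.19 (adjusted p = 0.279). *Tek* had at least 79 counts in every library, control included, and the cells it came from in control were not tested.

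*Tie1*, the partner receptor, had uneven control libraries at Day 3 and Day 7. Control held 0.946 and 4.76 CPM (Day 3), 0.154 and 4.94 (Day 7) and 0.451 and 0.285 (4 weeks), which is between 4 and 123 counts. With *Sox17*-*Erg*, libraries held 12.8 and 11.2 CPM (Day 3), 17.8 and 15.4 (Day 7) and 12.1 and 8.22 (4 weeks). The groups did not overlap, as in 14.7% of all tested genes, which were higher at all 3 times. The high control values were those of replicate 2 at Day 3 and Day 7, the libraries with 309 and 201 counts of *Cdh5*. The log2 fold change was 2.09 ± 1.01 at Day 3 (adjusted p = 0.197), 2.71 ± 1.02 at Day 7 (adjusted p = 0.101) and 4.73 ± 1.20 at 4 weeks (26.5-fold, adjusted p = 0.0207).

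Without those 2 control libraries, a choice made after the values were seen, *Tie1* was higher by 3.62 at Day 3 and by 6.70 at Day 7. Those were the control libraries with the most *Tie1*, so a larger difference followed from leaving them out. A single control library was left at each time, with 26 counts of *Tie1* at Day 3 and 4 at Day 7. With all libraries and no filter on low counts, *Tie1* was called at 2.10 (adjusted p = 0.00311) and 2.72 (adjusted p = 8.60e-05). These log2 fold changes were close to those with the filter, which *Tie1* itself passed. The filter thus changed the p-values and not the differences. At 4 weeks, where control *Cdh5* was at 10 and 14 counts, the call was lost without control replicate 1 (5.13, adjusted p = 0.109), control replicate 2 (4.49, adjusted p = 0.0997) or *Sox17*-*Erg* replicate 1 (4.42, adjusted p = 0.0787).

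*Ptprb*, the phosphatase that acts on TEK, had the highest level per kb of the 8 genes in *Sox17*-*Erg* libraries and was called at every time. In control the libraries held 173 and 122 CPM (Day 3), 56.2 and 36.6 (Day 7) and 20.7 and 52.5 (4 weeks). The *Sox17*-*Erg* values were 708 and 579 CPM (Day 3), 775 and 614 (Day 7) and 819 and 632 (4 weeks). The groups were far apart throughout, and the control level came down while the *Sox17*-*Erg* level held. The log2 fold change was 2.13 ± 0.41 at Day 3 (4.37-fold, adjusted p = 0.0141), 3.90 ± 0.44 at Day 7 (adjusted p = 0.000672) and 4.31 ± 0.45 at 4 weeks (19.9-fold, adjusted p = 0.000250).

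Leaving out any 1 library kept the *Ptprb* calls at Day 7, at 3.63 to 4.22, and at 4 weeks, at 3.79 to 5.14. The Day 3 call was lost without control replicate 1 (2.40, adjusted p = 0.0675), control replicate 2 (1.86, adjusted p = 0.123) or *Sox17*-*Erg* replicate 1 (1.93, adjusted p = 0.112) of that day. Within control, *Ptprb* fell by 2.01 ± 0.41 on the log2 scale from Day 3 to 4 weeks (4.04-fold, adjusted p = 0.00804), and without control replicate 1 of Day 3 the change was -1.74 (adjusted p = 0.0524). Within *Sox17*-*Erg* it differed by 0.17 ± 0.39 (adjusted p = 0.777). *Gm26495* and *Gm47625* overlap *Ptprb* on its own strand, where a stranded kit cannot separate them, and *Gm17473* lies opposite *Angpt1*. No row of the counts was matched to these genes, so their levels are not known here. Unlike *Tie1*, *Ptprb* was lower in control replicate 2 than in replicate 1 at Day 3 and Day 7, while *Cdh5* was higher.

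*Angpt1*, the ligand that activates TEK, had the largest rise of the 8 genes within control. The control values were 1.71 and 1.71 CPM (Day 3), 22.5 and 25.6 (Day 7) and 60.1 and 42.5 (4 weeks). *Sox17*-*Erg* libraries held 4.00 and 4.48 CPM (Day 3), 7.39 and 16.3 (Day 7) and 31.01 and 31.56 (4 weeks). Both groups climbed, and *Sox17*-*Erg* libraries were above control at Day 3 and below it at Day 7 and 4 weeks, with no overlap at any of these times. From Day 3 to 4 weeks *Angpt1* rose within control by 4.90 ± 0.37 on the log2 scale (30.0-fold, adjusted p = 0.000165) and within *Sox17*-*Erg* by 2.88 ± 0.34 (7.36-fold, adjusted p = 0.000791).

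The differences in *Angpt1* between groups were 1.31 ± 0.37 at Day 3 (2.48-fold, adjusted p = 0.0491), -1.03 ± 0.31 at Day 7 (adjusted p = 0.0494) and -0.72 ± 0.30 at 4 weeks (adjusted p = 0.122). The first 2 lay just under the threshold. Of 12 fits that each left out 1 library, 10 lost the Day 3 call and 10 the Day 7 call, with log2 fold changes of 1.22 to 1.35 and of -1.74 to -0.56 and adjusted p values up to 0.216 and 0.191. Only the fits without a *Sox17*-*Erg* library of Day 7 kept the Day 3 call. With the replicate number as a block it was at 1.30 (adjusted p = 0.0518), with the size factors of DESeq2 at 1.29 (adjusted p = 0.0523) and with a minimum count of 20 at 1.27 (adjusted p = 0.0528). In a fit of Day 7 alone the Day 7 difference was -1.04 (adjusted p = 0.173), and with no filter on low counts the 4 weeks difference was called (-0.72, adjusted p = 0.0136). The direction held in all 12 fits. With equal weight on the 3 time points, *Angpt1* differed by -0.18 on the log2 scale (two-sided exact permutation within time points, p = 0.657).

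*Angpt2*, the endothelial ligand that can oppose ANGPT1, was called by edgeR at 4 weeks and by DESeq2 also at Day 7 (1.01, adjusted p = 0.0176). In edgeR the Day 7 difference was called in a fit of that day alone (1.002, adjusted p = 0.0282) and with no filter on low counts (1.03, adjusted p = 0.000365). Control libraries held 6.11 and 10.4 CPM (Day 3), 17.5 and 20.4 (Day 7) and 24.0 and 16.5 (4 weeks). With *Sox17*-*Erg*, libraries held 8.10 and 15.6 CPM (Day 3), 39.2 and 37.5 (Day 7) and 132 and 103 (4 weeks). The groups overlapped at Day 3 and separated at Day 7 and 4 weeks. The log2 fold change was 0.54 ± 0.34 at Day 3 (adjusted p = 0.323), 1.02 ± 0.33 at Day 7 (2.03-fold, adjusted p = 0.0614) and 2.53 ± 0.34 at 4 weeks (5.78-fold, adjusted p = 0.000946). Leaving out any 1 library kept the call at 4 weeks, at 2.30 to 2.83.

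From Day 3 to 4 weeks *Angpt2* rose within *Sox17*-*Erg* by 3.30 ± 0.35 on the log2 scale (9.85-fold, adjusted p = 0.000584) and within control by 1.31 ± 0.34 (2.48-fold, adjusted p = 0.0210). The control call was lost without control replicate 1 of Day 3 (0.97, adjusted p = 0.145) or of 4 weeks (1.01, adjusted p = 0.134). *Angpt2* lies inside *Mcph1* on the opposite strand. The library kit keeps strand, but whether the counts used it is not given. *Mcph1* had at most 359 counts in any library against up to 3729 for *Angpt2*, and at 4 weeks it differed by 0.07 ± 0.20 (adjusted p = 0.844).

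*Angpt4*, the third TEK ligand, had between 4 and 23 counts per library, or 0.172 to 0.683 CPM. It passed the filter through 2 libraries, control replicate 2 at Day 7 and control replicate 1 at 4 weeks. The groups overlapped at every time, the log2 differences were -0.27, -0.94 and -0.51 with standard errors of 0.64 to 0.71, and adjusted p values were 0.362 or more. A difference in *Angpt4* was not detectable at this depth.

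Because ANGPT1 and ANGPT2 act on the same receptor, their transcripts were also set side by side as a ratio of CPM per kb within each library. In control the ratio of *Angpt2* to *Angpt1* was 5.04 and 8.54 (Day 3), 1.10 and 1.12 (Day 7) and 0.563 and 0.548 (4 weeks). In *Sox17*-*Erg* libraries it was 2.86 and 4.92 (Day 3), 7.48 and 3.24 (Day 7) and 6.005 and 4.588 (4 weeks). In control, *Angpt1* thus passed *Angpt2* by 4 weeks, and in every *Sox17*-*Erg* library *Angpt2* stayed above *Angpt1*. The order between groups at Day 3 was the opposite of that at the later times.

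The ratio of *Tie1* to *Tek*, in CPM per kb, was 0.229 and 1.25 (Day 3), 0.0339 and 0.802 (Day 7) and 0.0669 and 0.0450 (4 weeks) in control. In *Sox17*-*Erg* libraries it lay between 0.954 and 1.79 at all times, so both receptors were at like levels there. *Ptprb* exceeded *Tek* in all 12 libraries, by a ratio of 19.5 to 29.2 with *Sox17*-*Erg*. In control that ratio was 15.4 and 11.8 (Day 3), 4.58 and 2.19 (Day 7) and 1.13 and 3.06 (4 weeks).

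**Figure D3:**
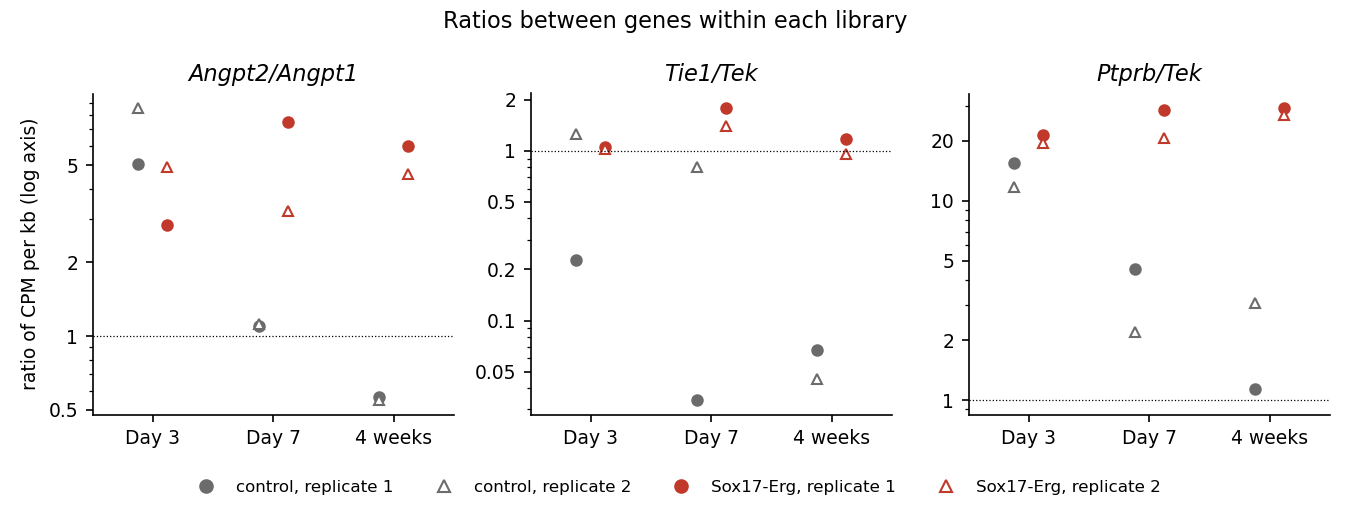
Ratios of CPM per kb within each library are on a log axis, with a dotted line at 1, gray for control, red for *Sox17*-*Erg*, and circles and triangles for replicates 1 and 2. For *Angpt2* against *Angpt1*, control ends at 0.563 and 0.548 and *Sox17*-*Erg* at 6.005 and 4.588 at 4 weeks. *Tie1* against *Tek* is uneven between control replicates at Day 3 and Day 7.

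*Angptl2* and *Angptl4* had *Sox17*-*Erg* libraries below control without overlap at each time, as did 13.6% of all tested genes. Of these differences 1, that of *Angptl2* at Day 7, was called, with more called under other settings given here. *Angptl2* was at 129 and 182 CPM (Day 3), 240 and 524 (Day 7) and 467 and 428 (4 weeks) in control. The *Sox17*-*Erg* values were 44.4 and 75.5 CPM (Day 3), 87.4 and 168 (Day 7) and 217 and 191 (4 weeks). Both groups climbed with time, with no overlap between them. The log2 fold change was -1.38 ± 0.42 at Day 3 (adjusted p = 0.0635), -1.58 ± 0.42 at Day 7 (2.99-fold lower, adjusted p = 0.0323) and -1.13 ± 0.42 at 4 weeks (adjusted p = 0.0823). DESeq2 called it lower at all times, with -1.40 (adjusted p = 0.00450) at Day 3 and -1.12 (adjusted p = 0.0212) at 4 weeks. In edgeR a block on replicate number gave calls at these times too, at -1.40 (adjusted p = 0.0258) and -1.13 (adjusted p = 0.0341). So did edgeR with no filter on low counts (adjusted p = 6.55e-05 and 0.000444) and in fits of single time points (adjusted p = 0.0382 and 0.00731), where Day 7 alone gave -1.60 (adjusted p = 0.121). The edgeR call at Day 7 was lost without control replicate 2 (-0.91, adjusted p = 0.214) or *Sox17*-*Erg* replicate 1 (-1.18, adjusted p = 0.217) of that day.

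*Angptl2* rose from Day 3 to 4 weeks by 1.52 ± 0.42 on the log2 scale within control (2.87-fold, adjusted p = 0.0274) and by 1.77 ± 0.43 within *Sox17*-*Erg* (adjusted p = 0.0142). The control call was lost without any 1 of its 4 libraries, at 1.30 to 1.77 and adjusted p values from 0.0626 to 0.164, and the *Sox17*-*Erg* call without replicate 1 of Day 3 (1.49, adjusted p = 0.0931) or of 4 weeks (1.72, adjusted p = 0.0617). *Angptl2* lies opposite *Ralgps1*, which had at most 246 counts and went the other way, at 1.64 ± 0.19 higher at Day 7.

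*Angptl4*, the lipoprotein lipase inhibitor, was at 3.97 and 1.94 CPM (Day 3), 9.52 and 41.4 (Day 7) and 32.1 and 5.73 (4 weeks) in control. *Sox17*-*Erg* libraries held 1.67 and 1.64 CPM (Day 3), 0.744 and 4.96 (Day 7) and 3.11 and 1.33 (4 weeks). Control replicates differed several-fold, and the groups still did not overlap. The log2 fold change was -0.85 ± 1.12 at Day 3 (adjusted p = 0.657), -3.20 ± 1.08 at Day 7 (adjusted p = 0.0717) and -3.09 ± 1.08 at 4 weeks (adjusted p = 0.0689). None of these passed with all 12 libraries and the filter on low counts. Leaving out 1 library at a time gave -5.12 to -1.78 at Day 7 and -3.83 to -1.36 at 4 weeks, and a call depended on the library left out. With no filter edgeR called *Angptl4* lower at Day 7 (-3.20, adjusted p = 1.01e-05) and at 4 weeks (-3.10, adjusted p = 1.26e-05). These log2 fold changes were close to those with the filter, which *Angptl4* itself passed. DESeq2 called it at the same times (-3.17 and -3.08, adjusted p = 0.0307 and 0.0334). Of adipocyte transcripts, *Adipoq*, which encodes adiponectin, had 590 and 41 counts in control at Day 7 and 755 and 203 at 4 weeks, against at most 1 in any *Sox17*-*Erg* library. At Day 7 *Angptl4* was higher in control replicate 2 than in replicate 1, while all 5 adipocyte markers were higher in replicate 1. The part of adipocyte-like cells in the *Angptl4* values was not tested.

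Over the 3 time points together, a two-sided exact permutation test within time points allowed 216 arrangements and a smallest p of 0.00926. *Tek*, *Tie1* and *Ptprb* reached it in the higher direction, as 14.7% of tested genes did, with mean log2 differences of 1.01, 3.64 and 3.50. *Angptl2* and *Angptl4* reached it in the lower direction, as 13.6% of genes did, with -1.36 and -2.24. *Angpt2* differed by 1.35 (permutation p = 0.0185), and *Angpt4* by -0.43 (permutation p = 0.157). A test of 1 time point alone cannot go below 0.333. Libraries were exchanged freely within a time, and same-numbered libraries were not kept as pairs. With pairs kept, fewer arrangements exist and the smallest p would be larger.

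Whether the *Sox17*-*Erg* effect itself changed between Day 3 and 4 weeks was tested as a difference in effect. With all libraries kept and the main filter on low counts, edgeR called no gene of the 8. Of all genes, 2.22% were called for a larger and 0.987% for a smaller effect at 4 weeks. Of the 8 genes, 4 had an unadjusted p under 0.05, as did 16.9% of all genes. When a library was left out, a call depended on which library that was. With no filter on low counts edgeR called *Tie1*, *Angpt2*, *Ptprb* and *Angpt1*, and with a minimum count of 20 it called *Angpt2*. The difference in effect was 1.99 ± 0.47 for *Angpt2* (adjusted p = 0.0592) and 2.19 ± 0.56 for *Ptprb* (adjusted p = 0.0786). It was -2.02 ± 0.48 for *Angpt1* (adjusted p = 0.0574) and -1.001 ± 0.268 for *Tek* (adjusted p = 0.0874). DESeq2 called a larger effect for 2 genes (background 4.29%), *Angpt2* (2.03, adjusted p = 0.00110) and *Ptprb* (2.21, adjusted p = 0.00124), and a smaller one for 1 (background 2.24%), *Angpt1* (-2.00, adjusted p = 0.00250), and gave *Tek* an adjusted p of 0.0645. For *Tie1*, with 2.63 ± 1.53, the adjusted p was 0.440.

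Over time within a group, 4 of 8 genes were called higher at 4 weeks than at Day 3 in control (*Tek*, *Angpt1*, *Angpt2* and *Angptl2*; background 13.9%) and 1 lower (*Ptprb*; background 12.6%). Within *Sox17*-*Erg*, 3 were called higher (*Angpt1*, *Angpt2* and *Angptl2*; background 15.1%) and 0 lower (background 15.6%), with 0 lower also at an unadjusted p under 0.05, where 21.4% of all genes were. *Angpt1*, *Angpt2* and *Angptl2* rose in both groups.

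Further genes of the pathway were taken as lists, and calls are those of edgeR unless DESeq2 is named. Beside their counts stand the shares of all tested genes, which for the higher direction were 7.19% (Day 3), 9.48% (Day 7) and 11.9% (4 weeks), and for the lower 5.13%, 7.93% and 11%. Of 10 proteins that act on angiopoietins or Tie receptors outside the cell, 0 were called at Day 3, where DESeq2 and the replicate block called *Svep1* lower, 2 were higher and 1 lower at Day 7, and 3 were higher and 1 lower at 4 weeks. *Itga5*, an integrin subunit reported to bind TEK and angiopoietins, was higher by 0.98 ± 0.26 at Day 7 (adjusted p = 0.0326) and 1.38 ± 0.26 at 4 weeks (adjusted p = 0.00567). *Itga9*, a binding partner of SVEP1, was higher by 1.14 ± 0.23 and 1.48 ± 0.23 (adjusted p = 0.00967 and 0.00191), and *Itgb3* by 1.54 ± 0.27 at 4 weeks (adjusted p = 0.00408). *Svep1*, a matrix protein that binds TIE1, was lower, at -2.20 ± 0.53 on the log2 scale at Day 7 (adjusted p = 0.0221) and -3.10 ± 0.55 at 4 weeks (adjusted p = 0.00397). The list's median log2 fold change was -0.21, 0.13 and 0.28 at the 3 time points.

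Among 20 tested of 21 intracellular effectors, 2 were higher and 1 lower at Day 3, 4 higher and 3 lower at Day 7, and 3 higher and 3 lower at 4 weeks. DESeq2 called 3 lower at Day 3 (*Shc1*, *Pik3r1* and *Foxo3*). *Foxo1*, the AKT-restrained transcription factor that activates *Angpt2*, was the effector called higher at all times, by 0.74 ± 0.18 (adjusted p = 0.0286), 0.94 ± 0.17 (adjusted p = 0.00665) and 1.74 ± 0.17 (adjusted p = 0.000202). Its level was 88.6 ± 10.4 CPM (SD, n = 2) with *Sox17*-*Erg* and 26.4 ± 5.35 in control at 4 weeks. *Foxo3*, its relative, was lower, at -1.23 ± 0.27 on the log2 scale at Day 7 (adjusted p = 0.0152) and -1.25 ± 0.27 at 4 weeks (adjusted p = 0.0104), and *Akt2* by -0.79 ± 0.17 and -0.81 ± 0.17 (adjusted p = 0.0136 and 0.00886). *Pik3cb*, a catalytic PI3 kinase subunit, was higher at Day 7 and 4 weeks, *Ptk2*, which encodes focal adhesion kinase, at Day 3 and Day 7, and *Iqgap1* at Day 7 and 4 weeks. *Pik3r1*, the regulatory subunit, was lower at Day 3 and 4 weeks, and *Shc1* at Day 7. The median of this list was 0.00, -0.04 and 0.07.

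Of 6 tested relatives and partners of VE-PTP, 2 were higher at Day 3 and Day 7 and 4 at 4 weeks, with none lower, and the median was 0.17, 0.09 and 0.78. *Cdh5*, whose product VE-PTP binds, was higher by 4.58 ± 1.23, 6.29 ± 1.34 and 10.17 ± 1.67 (adjusted p = 0.0428, 0.0128 and 0.00269), and *Kdr*, the main VEGF receptor, by 4.43 ± 0.47, 4.45 ± 0.47 and 3.26 ± 0.44 (adjusted p = 0.00103, 0.000474 and 0.00107). *Ptprj*, a phosphatase of the same class, was called at 4 weeks, higher by 0.62 ± 0.13 (adjusted p = 0.00886), as was *Ctnnb1*, which encodes beta-catenin, by 0.88 ± 0.15 (adjusted p = 0.00289). At Day 7 *Ctnnb1* was at 0.47 ± 0.15 (adjusted p = 0.0553), and DESeq2 called it.

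**Figure D4:**
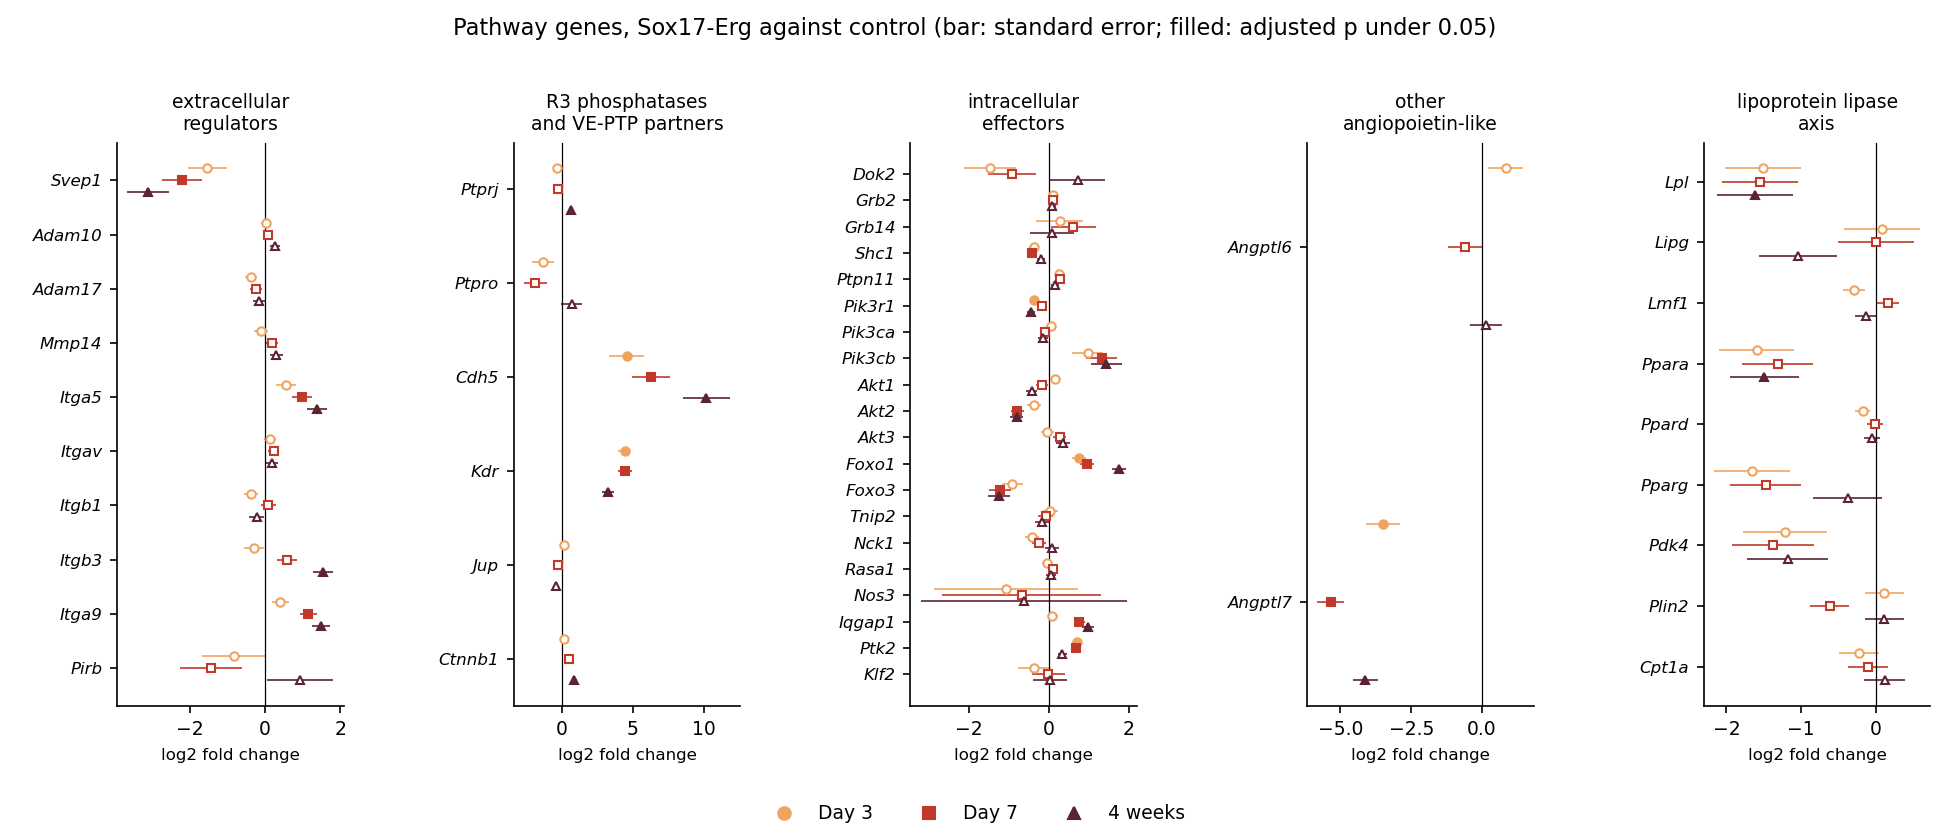
Each row is a tested gene of the pathway lists and the horizontal axis is the log2 fold change of *Sox17*-*Erg* against control, with bars of 1 standard error and filled symbols for an adjusted p under 0.05. Symbols stand for Day 3, Day 7 and 4 weeks, and each panel has its own axis range. *Foxo1* moves from 0.74 to 1.74, while *Svep1* and *Angptl7* lie to the left of 0.

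Of the other angiopoietin-like genes, 2 of 5 could be tested. *Angptl7*, a secreted protein of stromal cells, was lower by a log2 fold change of -3.48 ± 0.60, -5.34 ± 0.47 and -4.12 ± 0.44 (adjusted p = 0.00969, 0.000200 and 0.000269), with 159 ± 6.04 CPM (SD, n = 2) in control and 9.11 ± 1.73 with *Sox17*-*Erg* at 4 weeks. *Angptl6* was not called, at 0.84 ± 0.62 (adjusted p = 0.403) at Day 3. Among 9 tested of 11 genes around lipoprotein lipase, the target of ANGPTL4, 0 were called by edgeR at Day 3 or Day 7, while DESeq2 called *Lpl* and *Pparg* lower at both, and the replicate block *Lpl*. In edgeR *Lpl* was at -1.51 (adjusted p = 0.0820) and -1.56 (adjusted p = 0.0650) on these days. *Lpl* itself (-1.62 ± 0.51, adjusted p = 0.0478) and *Ppara* (-1.49 ± 0.46, adjusted p = 0.0462) were lower at 4 weeks. That list had a median of -0.30, -0.62 and -0.38.

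Markers of other cell types moved between the same groups, and their part in the values above was not tested. Of 9 tested endothelial markers, 3, 4 and 6 were higher at Day 3, Day 7 and 4 weeks, and *Eng* was lower at 4 weeks. Of 10 mural markers, the cell type that supplies ANGPT1 to vessels, 3, 6 and 5 were higher, *Des* was lower at Day 7, and *Kcnj8*, *Abcc9* and *Des* were lower at 4 weeks. The summed mural level was 1173 to 3086 CPM in control libraries and 2749 to 4486 in *Sox17*-*Erg* libraries. Of 5 adipocyte markers, 4 were lower at Day 7 and at 4 weeks, and *Fabp4* was not called. Of 4 mesothelial markers 1, 3 and 4 were lower, of 5 cardiomyocyte markers 2, 2 and 4 were lower, and of 8 fibroblast markers 1, 3 and 4 were lower, with *Postn* higher at Day 7 and 4 weeks. Of 4 tested lymphatic markers, *Prox1* was higher at all times, by 1.94, 2.95 and 4.78 (adjusted p = 0.0128, 0.000827 and 5.25e-05), and *Pdpn* was lower at Day 3 and Day 7, with log2 fold changes of -0.90 and -0.75 (adjusted p = 0.0198 and 0.0278). Of 7 macrophage markers 0 were called in either direction, with a summed level of 48.5 to 1361 CPM in control and 70.6 to 477 with *Sox17*-*Erg*.

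As a description, the genes whose log2 CPM followed each member most closely over the 12 libraries were named by Pearson's r. The libraries share 2 treatments and 3 times, so many genes have a high r. *Tie1* followed *Spast* (r = 0.966) and *Cdh5* (r = 0.958), and *Tek* followed *Lhx6* (r = 0.972). *Ptprb* was nearest to *Mfsd2a* (r = 0.991), a lipid transporter of brain endothelium, and *Cd44* (r = 0.988). *Angpt1* was nearest to *Pex11a* (r = 0.972) and *Klf9* (r = 0.971), and *Angpt2* to *Klf10* (r = 0.970) and *Pam* (r = 0.964). *Angptl2* was nearest to *Pltp* (r = 0.990), *Angptl4* to *Scgb3a1* (r = 0.951) and *Angpt4*, with its few counts, to *Yipf2* (r = 0.909).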

How the data were processed

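Bulk RNAseq of cardiac fibroblast cultures was measured in 12 libraries, 2 for each of control and *Sox17*-*Erg* at Day 3, Day 7 and 4 weeks, grouped by sample title. A stranded mRNA kit and 2 × 50 paired-end sequencing were used. The authors demultiplexed with bcl2fastq 2.20.0, trimmed high GC content with BBDuk, quantified with Salmon against mm10 and deposited estimated counts per gene as whole numbers, with no scaling for depth. The Salmon version, annotation and strand setting are not given in the sources used here.

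The main test was that of edgeR 4.0.16, in R 4.3.3 (TMM, filterByExpr with minimum count 10 and total 15, 15506 genes kept, quasi-likelihood, 1 mean per group, 6 residual degrees of freedom). Log2 CPM, counts per library scaled for depth, used a prior count of 2. Symbols came from GENCODE M21, which held 35493 of 35727 genes. Lengths are unions of exons. Library totals of 19011635 to 41240449 limit low genes most, and replicates differed beyond counting error (chi-square per degree of freedom 29.7 to 76.0). In data simulated for Day 7 with 15298 genes tested, 31 of 91 genes changed 2-fold and 73 of 103 changed 4-fold were called, with 4 of 108 calls false. The simulation changed far fewer genes than were called in the real data and drew libraries independently. These rates therefore need not hold for the calls above.

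Named genes were the 8 members, the called genes of the pathway lists and, for each member, the 3 nearest by Pearson's r, of which 1 or 2 are named. *Angptl6*, *Fabp4*, *Adipoq*, *Pparg* and overlapping genes were named after their values were seen. Members and lists were chosen with earlier results of these data known. Alternatives were DESeq2 1.42.0, its size factors, other filters, single time points, a stricter threshold, the replicate number as a block, and leaving out libraries. Same-numbered libraries, which the labels tie by number only, deviated together across genes (correlations of 0.19, 0.30 and 0.17 at the 3 times). The authors' DESeq2 results were not used.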

Additional observations from a re-analysis of the deposited data

How the results depend on the processing

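With 2 libraries per group, calls near the threshold moved. Over the log2 fold changes of the 8 genes, alternatives that kept all libraries and the threshold of 0.05 reversed 0 directions, lost 6 calls and added 28, and the fit without control replicate 2 of Day 3 and of Day 7 lost 5 and added 2. At an adjusted p under 0.01, 9 of the 18 calls over 6 comparisons were left. Shares in parentheses are of all genes tested in the same fit. At Day 3, the genes called higher numbered 1 at an adjusted p under 0.01 (1.96%), against 3, 4 were called higher with no filter (*Tie1* added; 5.91%), and 1 gene, *Angptl2*, was called lower with DESeq2 (8.33%), with no filter (5.19%), with the replicate block (6.64%) and in a fit of the single time point (6.88%). At Day 7, 4 were called higher with no filter (*Tie1* and *Angpt2* added; 6.53%), the single time point fit called *Angpt2* and *Ptprb* but not *Tek* higher (4.18%), 3 were called lower with no filter (*Angptl4* added; 6.73%), and 0 were called lower in the single time point fit (3.29%) or at an adjusted p under 0.01 (2.64%). At 4 weeks, 2 were called lower with DESeq2 (*Angptl2* and *Angptl4*; 11.5%), 3 with no filter (*Angpt1* added; 7.92%), and 1 (*Angptl2*) with the replicate block (12.2%) or in the single time point fit (9.74%). For the difference in effect, 2 were called higher with DESeq2 (4.29%), 3 with no filter (*Tie1*, *Angpt2* and *Ptprb*; 2.85%) and 1 with a minimum count of 20 (*Angpt2*; 2.71%), and 1 (*Angpt1*) was called lower with DESeq2 (2.24%) and with no filter (1.74%). From Day 3 to 4 weeks within control, 1 was called higher at an adjusted p under 0.01 (6.11%), and 2 were called lower with no filter (8.52%). The cause of these shifts was not tested.

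Without those 2 control libraries, a choice made after seeing the data, a single control library was left at Day 3 and at Day 7. At Day 3 *Ptprb* was then at 1.86 and *Angpt1* at 1.27 on the log2 scale. At Day 7 *Angpt1* was at -0.94 and *Angptl2* at -0.92.

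Leaving out each library in turn, where an arm left with 1 library is assumed to vary like the others, gave 1 to 3 genes higher (1.25% to 6.83% of all tested genes) and 0 to 1 lower (0.41% to 6.19%) at Day 3. It gave 1 to 3 higher (3.85% to 8.49%) and 0 to 3 lower (1.84% to 7.99%) at Day 7, and 2 to 4 higher (6.5% to 11.7%) and 0 to 2 lower (4.01% to 10.6%) at 4 weeks. For the difference in effect it gave 0 to 1 higher (0.789% to 2.19%) and 0 to 1 lower (0.273% to 0.937%). Within control it gave 1 to 4 higher (5.64% to 14.1%) and 0 to 2 lower (4.93% to 12.3%), and within *Sox17*-*Erg* 2 to 3 higher (7.69% to 16.4%) and 0 to 0 lower (5% to 15.1%). Directions that turned belonged to values that were not called. *Angpt2* at Day 3 ran from -0.0195 to 0.93, *Tie1* within *Sox17*-*Erg* from -0.50 to 0.0115, *Angptl2* in the difference in effect from -0.0461 to 0.68, and *Angptl4* within *Sox17*-*Erg* from -0.26 to 0.91. *Angpt4* ran from -0.75 to 0.0903 at Day 3, -0.97 to 0.10 at 4 weeks, -0.67 to 0.37 for the difference in effect and -0.0374 to 0.87 within *Sox17*-*Erg*.

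With the replicate block *Angpt1* at Day 3 was at 1.30 (adjusted p = 0.0518), *Angptl2* at -1.40 (adjusted p = 0.0258) at Day 3 and -1.13 (adjusted p = 0.0341) at 4 weeks, with no other call of the 8 genes changed. Of all genes, the difference in effect had 345 higher and 153 lower, against 662 and 346 with DESeq2 and 732 and 447 with no filter, and at Day 3 795 were lower against 1245 with DESeq2 and 1333 with no filter.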
